A study of Mus musculus with 3 samples.

Results

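The genes described here are 9 genes that T cells switch on soon after their antigen receptor is engaged: Nr4a1, Nr4a2, Nr4a3, Egr2, Irf4, Batf, Myc, Rgs16 and Nfkbid. They were listed by symbol, with earlier results of these data known, and all 9 were found among the 32285 genes of the deposited single-cell RNA counts. The 3 libraries hold CD45+ (blood-derived) cells of B16F10 tumours, a mouse melanoma line growing under the skin of C57BL/6 mice. All mice had received, by vein on day 9 after tumour inoculation, Pmel-1 cytotoxic T lymphocytes that had been activated in culture and carry a transgenic receptor for the melanocyte antigen gp100. One library was made per day, at days 3, 7 and 14 after the transfer, each from 3 pooled mice, so days have no replicate, and tumour age moves with the day. Mice that received no T cells were not analysed here, and host CD8 T cells were present besides the transferred ones.

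When the receptor binds antigen, calcium, MAP kinase and NF-kappaB signals reach the nucleus and induce a wave of transcription factors. Nr4a1 (Nur77), Nr4a2 and Nr4a3 are orphan nuclear receptors used as reporters of that signal, and with Egr2 they restrain later activation. Irf4 and its partner Batf, a basic leucine zipper factor, drive effector differentiation and metabolism, and Myc drives growth. Rgs16 shortens signals from G protein-coupled chemokine receptors, and Nfkbid encodes IkBNS, a nuclear regulator of NF-kappaB. Several of these genes are also induced in other leukocytes by other stimuli.

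In mouse genome build mm10 (GENCODE M21) Nr4a1 lies at chr15:101254269-101274795, Nr4a2 at chr2:57106830-57124003 on the minus strand, Nr4a3 at chr4:48045153-48086447 and Egr2 at chr10:67535475-67542188. Irf4 lies at chr13:30749226-30766976, Batf at chr12:85686669-85709087, Myc at chr15:61985391-61990374, Rgs16 at chr1:153740349-153745468 and Nfkbid at chr7:30421732-30428746. All but Nr4a2 are on the plus strand.

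Cells were taken from 8277 barcodes of at least 1500 UMIs (unique molecular identifiers, the tags that count captured RNA molecules) by marker counts. CD8 T cells numbered 1418 (443, 517 and 458 at days 3, 7 and 14), natural killer (NK) cells 767 (208, 401 and 158) and Foxp3-positive regulatory T cells (Treg) 180 (46, 45 and 89). CD8 cells were split by at least 1 UMI of Ifng, the effector cytokine interferon-gamma (783 cells with and 635 without), and by at least 1 UMI of Trbv14, the beta chain segment of the Pmel-1 receptor (370 with and 1048 without). A cell without a Trbv14 UMI can still carry that receptor. Markers that the gates did not use matched the labels: Trac was at 549 to 749 CPM (a gene's share of all UMIs of the class and library, scaled to a fixed total) in CD8 cells and 20.4 to 34.1 in NK cells, Klra8 at 407 to 453 CPM in NK cells and 0.74 to 2.19 in CD8 cells, and Ikzf2 at 803 to 1224 CPM in Treg and 161 to 213 in CD8 cells.

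Depth, shared barcodes and mixed cells touch the results. The classes differ in depth: the median CD8 cell with an Ifng UMI held 23103, 17557.5 and 16831 UMIs at days 3, 7 and 14, and the median one without held 8311, 10074 and 8725. Barcodes occurring in more than 1 library made up 206 of the 1418 CD8 cells, 167 of them with an Ifng UMI. Of the same 1418 cells 194 held UMIs of myeloid or B cell genes (at least 3 of Lyz2, 2 of C1qa and C1qb, 2 of Cd79a or 10 of S100a8) and are called mixed cells below. Shared barcodes and mixed cells were counted separately, so a cell can be in both counts. In Lyz2-high (monocyte and macrophage) cells Ifng UMIs were in 4.33%, 1.27% and 1.83% of cells at a median of 10487.5 to 11905 UMIs, against 60.9%, 54.9% and 50% of CD8 cells.

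The upstream sequences of the 3 NR4A genes are shown because they share a feature; no relation between it and the RNA levels was tested. The cyclic AMP response element (CRE) half-site, TGACG on either strand, occurred 4 times in the 250 bases before the RefSeq start of each of Nr4a1, Nr4a2 and Nr4a3. For Nr4a1 that start lies inside the GENCODE gene span given above, which begins with a longer transcript. It occurred at least once in 17.8% of all 32851 promoter windows of that length, and at least 3 times in 0.688%. Sequences are from RefSeq (GRCm38.p6), 5′ to 3′ on the gene's strand, with half-sites in capitals, and stop before any exon annotated in GENCODE M21. The stretches are chr15:101266596-101266845 (plus strand) for Nr4a1, chr2:57124004-57124253 (minus strand) for Nr4a2 and chr4:48045055-48045152 (plus strand, 98 bases holding 3 of the 4 half-sites) for Nr4a3.
Nr4a1: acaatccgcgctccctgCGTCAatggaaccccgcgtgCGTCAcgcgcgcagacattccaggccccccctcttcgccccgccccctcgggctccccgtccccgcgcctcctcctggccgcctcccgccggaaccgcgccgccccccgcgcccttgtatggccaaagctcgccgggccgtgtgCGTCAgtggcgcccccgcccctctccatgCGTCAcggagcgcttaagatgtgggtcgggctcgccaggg
Nr4a2: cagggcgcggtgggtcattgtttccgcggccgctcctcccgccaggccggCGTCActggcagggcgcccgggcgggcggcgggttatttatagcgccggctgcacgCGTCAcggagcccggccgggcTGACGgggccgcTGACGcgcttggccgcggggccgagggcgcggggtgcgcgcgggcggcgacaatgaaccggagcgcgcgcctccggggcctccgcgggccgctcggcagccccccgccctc
Nr4a3: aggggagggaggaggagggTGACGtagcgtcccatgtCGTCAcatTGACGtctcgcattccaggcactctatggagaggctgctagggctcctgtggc

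Batf and Rgs16, whose levels are described at length below, are shown for reference: the same length before Batf held 1 half-site and that before Rgs16 held none. Half-sites also occurred 2 times in each of the 3 overlapping windows of Egr2 and 2 times in 1 of the 3 windows of Nfkbid, and not in that of Irf4. At least 2 were in 3.9% of all windows. The printed stretches are chr12:85686470-85686668 for Batf and chr1:153740103-153740348 for Rgs16, both on the plus strand. The full palindrome TGACGTCA, found in 1.55% of windows, was absent from the windows of Nr4a1, Nr4a2, Nr4a3, Batf and Rgs16 and present once in 1 of the 3 windows of Nfkbid. Windows were found for 8 of the 9 genes. The NFAT core GGAAA, found in 55.6% of windows, was in that of Nr4a2 once and in that of Batf 2 times, and in neither Nr4a1, Nr4a3 nor Rgs16. The AP-1 site TGANTCA was in 6.75% of windows and in none of these 5, and the CArG box (serum response element core), in 1.47% of windows, was in 4 of the 5 windows of Egr2, of which 3 overlap one another. These are letter matches on both strands, and overlapping half-sites and full palindromes were counted under both.
Batf: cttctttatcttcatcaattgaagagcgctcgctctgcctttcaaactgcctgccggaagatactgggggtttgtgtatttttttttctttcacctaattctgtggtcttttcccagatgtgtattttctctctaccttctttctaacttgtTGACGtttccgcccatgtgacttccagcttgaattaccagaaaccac
Rgs16: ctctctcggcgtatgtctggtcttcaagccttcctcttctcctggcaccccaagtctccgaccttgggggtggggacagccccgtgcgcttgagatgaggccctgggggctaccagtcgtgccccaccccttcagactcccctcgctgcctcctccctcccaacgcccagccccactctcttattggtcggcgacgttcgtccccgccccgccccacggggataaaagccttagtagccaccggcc

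Across 7 groups of cells the 9 genes had different leading cell types. Rgs16 was highest in CD8 T cells, at 215, 201 and 187 CPM at days 3, 7 and 14. NK cells and Treg followed at 44.4 to 96.5 and 44.4 to 93.5 CPM, ranges that overlapped with each other and not with CD8. By the mean of CPM over cells, Treg were at 59.2, 102 and 216 and CD8 cells at 203, 185 and 172, so Treg were higher at day 14. It was at 0.403 to 0.859 CPM in Lyz2-high cells and had no UMI in B cells. After every cell was thinned to 1500 UMIs, an Rgs16 UMI was expected in 17.4% to 20.9% of CD8 cells and 0.0644% to 0.136% of Lyz2-high cells (observed: 48.9% to 57.6% at medians of 11028 to 16155 UMIs, and 0.462% to 0.85%). Irf4 was restricted in another way. It was at 36.0, 33.8 and 22.9 CPM in CD8 cells and 61.7 to 148 in B cells (at least 2 UMIs of Cd79a and Ms4a1, with 5 cells at day 7), with CD4 T cells (19.4 to 105) and Treg (13.1 to 45.9) overlapping CD8. NK cells held 0, 2 and 0 Irf4 UMIs. Batf was highest by median in Treg, at 103, 151 and 168 CPM, above CD8 cells at 78.2 to 91.0. CD4 T cells (61.2 to 128) overlapped both.

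The other 6 genes were not highest in CD8 cells. Nr4a1 was lowest there of the 7 groups, at 96.3, 117 and 89.4 CPM, against 161 to 175 in Treg, 187 to 262 in NK cells, 324 to 394 in Lyz2-high cells and 341 to 444 in S100a8-high (neutrophil) cells. Nfkbid was also lowest in CD8, at 38.9 to 45.8 CPM, below Treg at 52.3 to 102 and Lyz2-high cells at 54.7 to 63.4. It was highest by median in S100a8-high cells at 283 to 357, within the range of B cells (109 to 534). The B cell median was 124, and that gate held 5 cells at day 7. Nr4a2 ran the other way: it was at 243, 413 and 321 CPM in CD8 and 412, 463 and 254 in NK cells, which overlapped, and at 85.7 to 132 in Treg. Nr4a3 was at 65.6 to 75.5 CPM in CD8, within the ranges of CD4 T cells, Treg and neutrophils, and at 89.7 to 118 in NK cells. Egr2 was at 7.65 to 12.7 CPM in CD8, 5.17 to 12.9 in NK cells, 13.8 to 32.7 in Treg, 4.85 to 52.7 in CD4 T cells and 0 to 43.3 in B cells, below Lyz2-high cells at 57.5 to 108. Myc was at 49.2 to 68.2 CPM in CD8, overlapping NK cells at 52.7 to 88.5 and lying above Treg at 34.4 to 44.4.

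**Figure D1:**
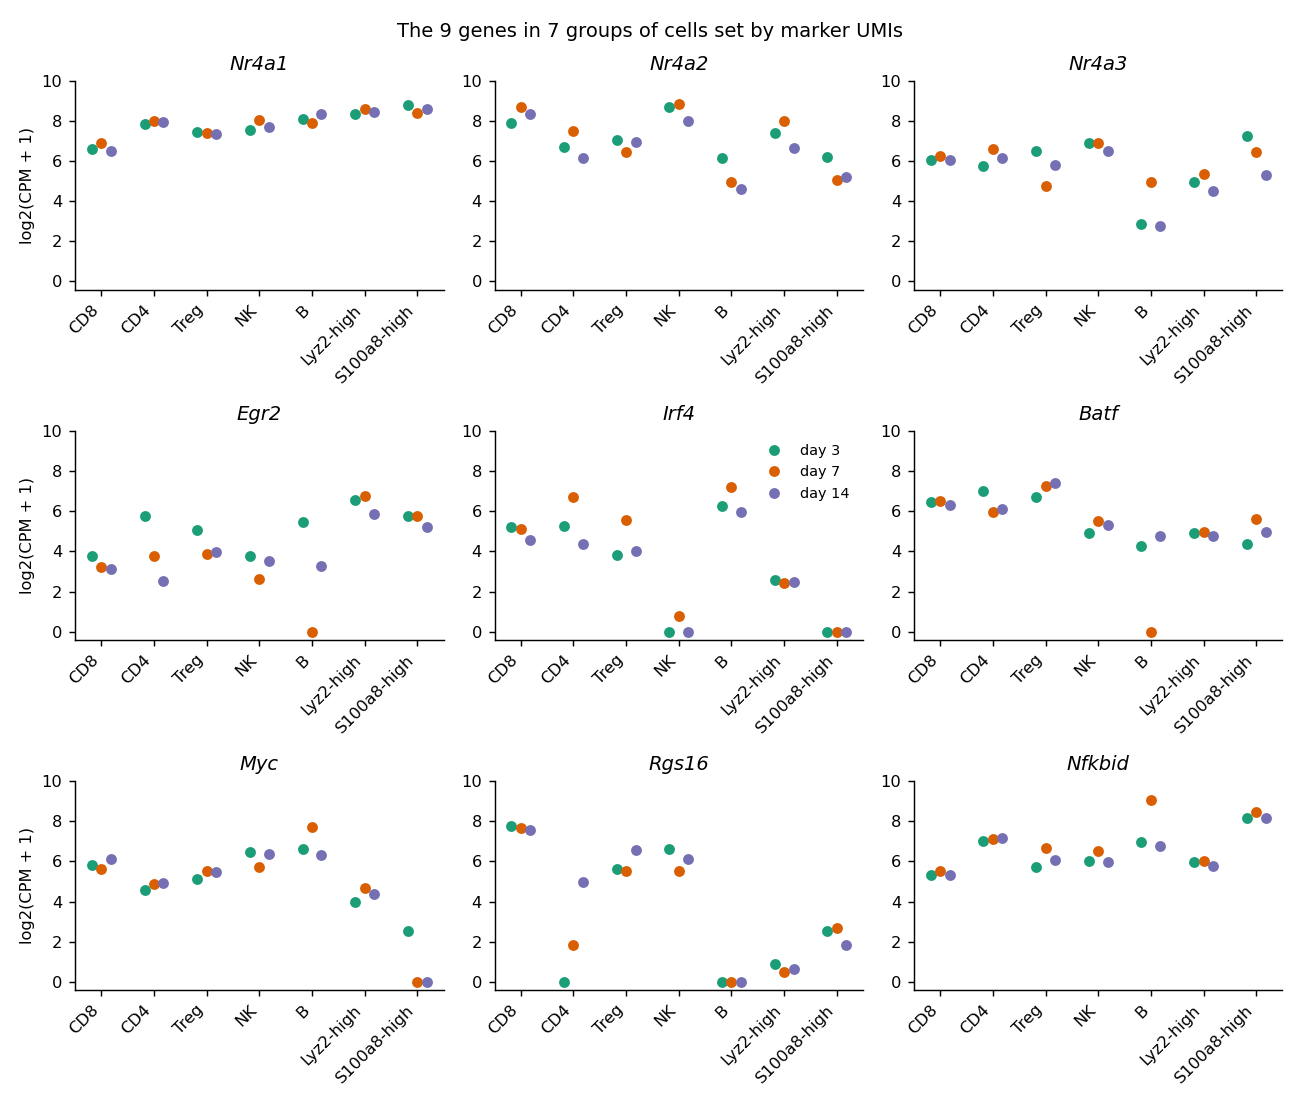
Level of each of the 9 genes, as log2(CPM + 1), in 7 groups of cells set by marker UMIs, with 1 point per library (days 3, 7 and 14). Rgs16 stands highest in CD8 cells, at 0 in B cells and at no more than 5.42 CPM in Lyz2-high and S100a8-high cells, Irf4 is at or near 0 in NK and S100a8-high cells, and Nr4a1 is lowest in CD8 cells.

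The comparison of CD8 cells with and without an Ifng UMI asks which early genes accompany effector cytokine RNA. Rgs16, Batf and Egr2 were higher in cells with Ifng, and no member was called lower. The 3 genes called of 9 stand beside 22.8% of all 9770 genes tested, 11.5% higher and 11.3% lower, by edgeR's quasi-likelihood test on UMI sums with library as block and adjusted p below 0.05. The 3 libraries are 3 days, so the residual spread includes differences between days.

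Rgs16 was at 237, 248 and 268 CPM in cells with an Ifng UMI at days 3, 7 and 14, and at 133, 106 and 67.0 in cells without. The groups did not overlap, and the gap was widest at day 14, with ratios of 1.78 (95% counting interval 1.56 to 2.04), 2.34 (2.08 to 2.65) and 3.99 (3.46 to 4.63). Over the 3 libraries the log2 fold change was 1.29 ± 0.29 (SE, edgeR adjusted p = 0.0365). After thinning to 1500 UMIs an Rgs16 UMI was expected in 26.5%, 27.4% and 26.5% of cells with Ifng and in 12.2%, 10.4% and 8.31% of those without. In cells of 8000 to 20000 UMIs, where the 2 classes had medians of 12126.5 to 14527 and 10419 to 11548.5, the log2 difference was 1.5 (edgeR adjusted p = 0.000566), and with thinned cells 1.39 (edgeR adjusted p = 2.69e-09). With the mixed cells removed it was 1.18 and missed the threshold (edgeR adjusted p = 0.0669), and it also missed it without the day 3 library (1.54) or the day 7 library (1.36).

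Batf was at 93.5, 102 and 88.2 CPM with an Ifng UMI and at 65.8, 68.3 and 63.3 without. Every value with Ifng lay above every value without, and the ratio over all CD8 cells was steady at 1.42, 1.49 and 1.39. The log2 fold change was 0.47 ± 0.10 (edgeR adjusted p = 0.00212), with the mixed cells removed 0.45 and with shared barcodes removed 0.58, both past the threshold. It missed the threshold without the day 7 library (0.44) and with thinned cells (0.34).

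Egr2 was at 14.2, 9.30 and 9.48 CPM with Ifng and 6.79, 6.00 and 4.92 without, a log2 fold change of 0.82 ± 0.26 (edgeR adjusted p = 0.0249). The classes did not overlap, but the counts are small, at 104, 57 and 46 UMIs against 13, 18 and 16. Most of these UMIs came from the mixed cells: without them 24, 25 and 22 UMIs were left with Ifng and 1, 5 and 8 without, and the gene fell below the count filter of this fit. Mixed cells were 126 of the 783 cells with Ifng and 68 of the 635 without. The summed level of 16 myeloid markers was 3169, 1662 and 2872 CPM with Ifng and 5294, 1537 and 5617 without, lower with Ifng at days 3 and 14 and higher at day 7; its part in the result was not tested.

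The NR4A genes and the remaining members did not pass the test. Nr4a1 was at 93.7, 117 and 90.4 CPM with Ifng and 106, 119 and 87.9 without (log2 −0.10 ± 0.11), and the classes overlapped. Nr4a3 was at 62.4, 75 and 69.2 against 77.8, 76.3 and 63.0 CPM (−0.12 ± 0.11). Nr4a2 was at 248, 431 and 372 against 224, 378 and 245 CPM, higher with Ifng in 3 of 3 libraries by 1.10, 1.14 and 1.52 times, at 0.26 ± 0.11 (edgeR adjusted p = 0.0834). It passed with mixed cells removed (0.23), shared barcodes removed (0.35), cells under 10% mitochondrial UMIs (0.30) and thinned cells (0.38).

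Irf4 was at 36.6, 34.4 and 27.8 CPM with Ifng and 33.4, 32.7 and 15.7 without (0.26 ± 0.16), and Myc at 57.7, 50.1 and 81.8 against 48.1, 47.3 and 47.9 (0.33 ± 0.26). For both genes the counting interval of the ratio excluded 1 only at day 14, where it was 1.77 (1.28 to 2.50) for Irf4 and 1.71 (1.41 to 2.07) for Myc. Nfkbid, alone among the members, was lower with Ifng in 3 of 3 libraries, at 35.0, 45.2 and 37.1 against 55.4, 47.0 and 41.5 CPM (−0.34 ± 0.13, edgeR adjusted p = 0.0627). It passed the test with the mixed cells removed, at −0.40, as did Nr4a3 at −0.29. The direction of Nr4a3 differed between Trbv14-positive and Trbv14-negative cells, as given below.

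**Figure D2:**
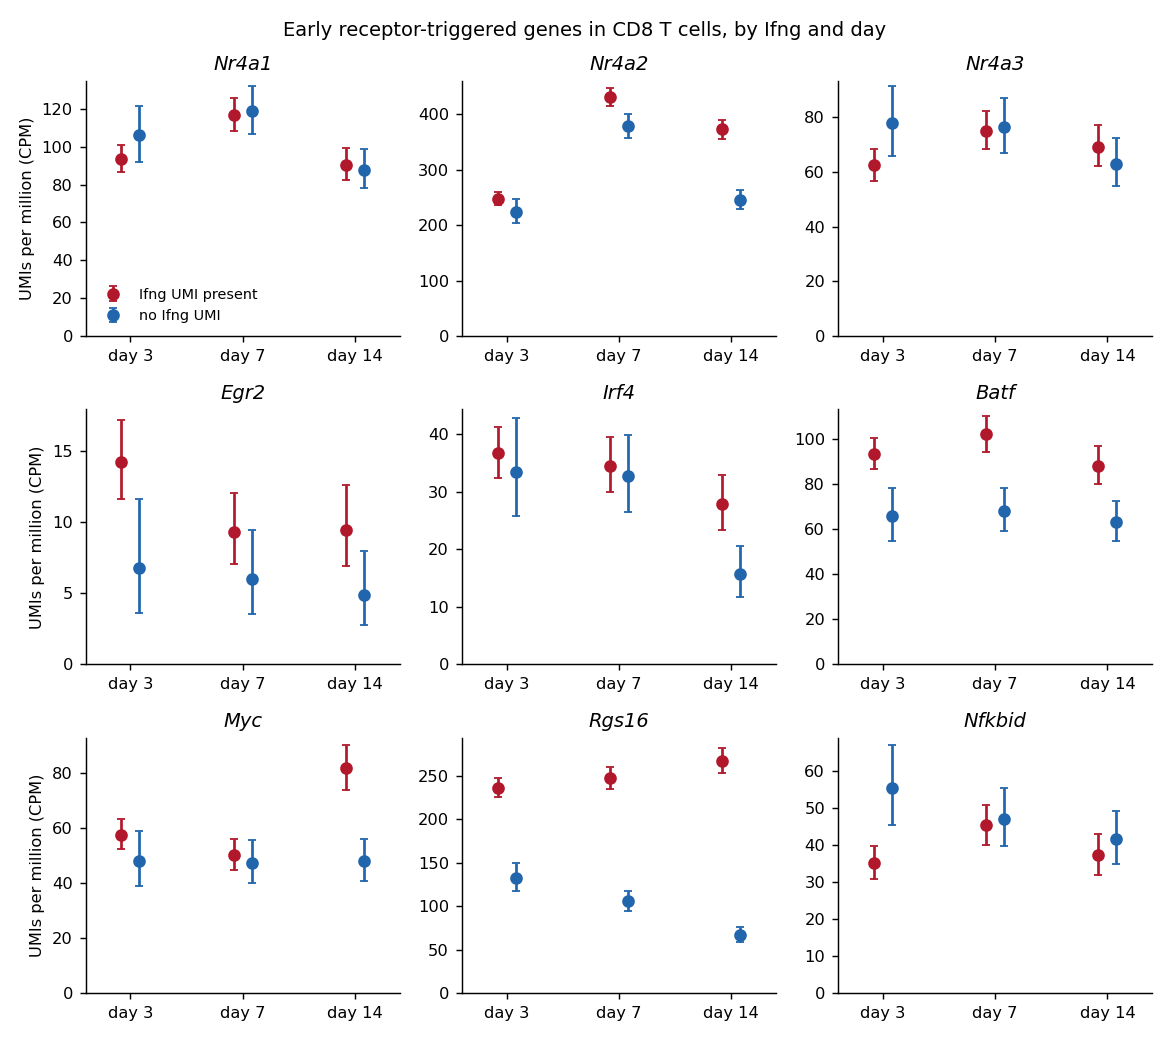
CPM of each gene in CD8 T cells with (red) and without (blue) an Ifng UMI at days 3, 7 and 14, 1 library per day; bars are 95% Poisson intervals for counting error. The 2 classes stand apart at every day for Rgs16 and Batf and overlap for Nr4a1.

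The other genes of the pathway, in lists compiled from general knowledge, split by kind in the same fit. Of 15 immediate early genes, 0 were higher and 8 lower with an Ifng UMI (median log2 −0.40, beside −0.02 for all genes). Jun, an AP-1 subunit, was at 112, 85.6 and 168 CPM with Ifng and 213, 105 and 308 without (−0.76 ± 0.12, edgeR adjusted p = 0.000456), and Fosl2 (−0.53), Ier5 (−0.51) and Zfp36, which destabilises cytokine mRNA (−0.49), fell as well. Of 20 receptor proximal signalling genes 0 rose and 7 fell (median −0.18). Prkcq, the kinase PKC-theta, fell by 0.61, Nfatc2 by 0.61 and Malt1 by 0.58 on the log2 scale. In the list of 21 negative feedback genes 2 rose and 7 fell, among them Sh2b3 (−1.20), the phosphatase Dusp10 (−1.08), Socs3 (−0.90) and Dgka (−0.89).

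Cytokine and growth genes moved the other way. Of 13 cytokine and chemokine genes tested (Ifng left out), 7 rose and 2 fell with Ifng (median 1.48). Ccl3 was at 903, 608 and 460 CPM against 67.4, 47.0 and 125 (2.98 ± 0.56), Ccl4 rose by 2.04, and the growth factor genes Il2 and Csf2 rose by 3.35 and 2.4 from low levels (Il2 at 5.06 to 13.7 CPM with Ifng and 0.522 to 1.33 without). Of 20 Myc-linked growth genes 15 rose and 0 fell (median 0.37), although Myc itself did not pass. They include the amino acid transporter Slc7a5 (0.80), the transferrin receptor Tfrc (0.74), the chaperonin Hspd1 (0.74) and the spermidine synthase Srm (0.68).

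Activation receptors split 5 higher and 4 lower of 14 tested. The inhibitory receptors Havcr2 (TIM-3) and Pdcd1 (PD-1) rose by 1.51 and 1.0 and the costimulatory Tnfrsf9 by 0.96, while Cd69 fell by 0.74. Among 16 BATF and IRF4 partners and targets, 4 were higher and 5 lower: the memory factor Tcf7 was at 17.5, 38.5 and 93.5 CPM with Ifng and 135, 193 and 211 without (−2.11 ± 0.39), Bcl6 fell by 1.07, Bach2 by 0.76, and Id2 rose by 0.73. Of 12 NF-kappaB genes, 1 rose (Nfkbib, 0.33) and 3 fell (Bcl3, −0.64; Relb, −0.42; Tnfaip3, −0.28). The list of 19 dissociation and stress genes, which shares 9 genes with the immediate early list, had 3 higher (Hsp90aa1 at 0.54 and Hsph1 at 0.60 among them) and 5 lower. Of 16 myeloid markers 2 were lower (Tyrobp, −0.65; Csf1r, −0.63), and the list's median was −0.64; of 3 B cell markers tested 2 were lower (Cd79b, −1.17; Ighm, −0.69) and of 4 neutrophil markers 1 (Retnlg, −4.31); none of 7 melanoma markers had the counts to be tested. The part of other cells' RNA in the list results was not tested.

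**Figure D3:**
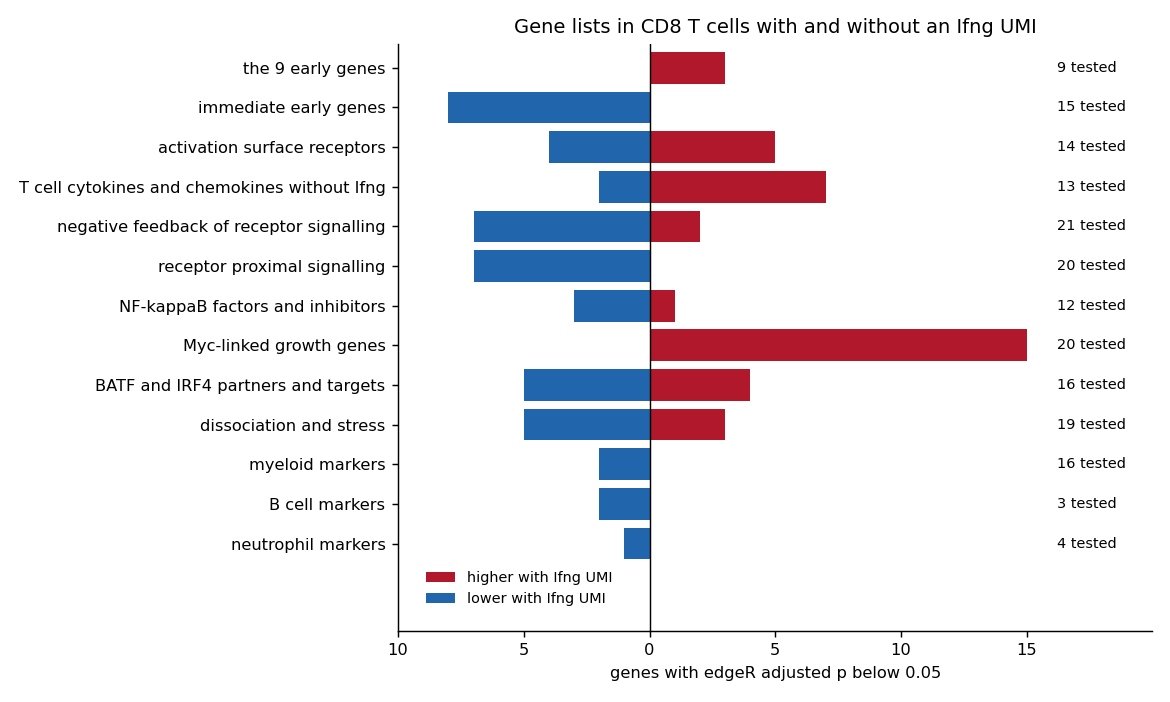
Number of genes of each list that were higher (red, to the right) or lower (blue, to the left) in CD8 T cells with an Ifng UMI, by edgeR adjusted p below 0.05, with the number tested at the right. Growth genes and cytokines lie on the right, immediate early and proximal signalling genes on the left, and 3 of the 9 early genes on the right.

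In NK cells, which make Ifng without an antigen receptor, fewer genes passed. Of 9770 genes 24 passed the test (0.246%; 842 had an unadjusted p below 0.05), and 1 of them was a member, Nr4a1. It was at 192, 370 and 241 CPM in NK cells with an Ifng UMI and at 175, 183 and 159 in those without, groups that did not overlap, with ratios of 1.10 (0.827 to 1.47), 2.02 (1.74 to 2.34) and 1.52 (1.15 to 2.01). The log2 fold change was 0.67 ± 0.13 (edgeR adjusted p = 0.0283). It lost its call without the day 7 library (0.36), which holds 401 of the 767 NK cells, without day 14 (0.72), and with mixed cells removed (0.66). Nfkbid was higher with Ifng in 3 of 3 libraries, at 73.0, 118 and 68.2 against 49.8, 70.3 and 50.1 CPM (0.65 ± 0.17, edgeR adjusted p = 0.152). The other members did not pass. Nr4a2 was at 424, 483 and 226 CPM with Ifng and 389, 448 and 297 without, and Batf at 26.8, 46.6 and 33.4 against 33.2, 43.5 and 46.0. Myc was higher with Ifng at day 7 (79.3 against 33.3 CPM) and lower at day 3 (77.9 against 109). At day 3 the counting interval of the ratio included 1 (0.482 to 1.07), and 1 cell held 22 of the 46 UMIs without Ifng. After thinning, a Myc UMI was expected at that day in 10.9% of NK cells with Ifng and 9.01% of those without. Depth differed little between these NK classes, with medians of 4978 to 6149.5 and 4791 to 5836 UMIs.

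The difference of the Ifng effect between CD8 and NK cells was tested in the same fit and passed for 131 genes (1.34%), 2 of them members. Nfkbid differed by −0.99 ± 0.21 (edgeR adjusted p = 0.0205) and Nr4a1 by −0.78 ± 0.17 (edgeR adjusted p = 0.0303), both being relatively higher with Ifng in NK cells and not in CD8 cells. Neither passed by DESeq2 (−0.96 and −0.73), without the day 7 library (−0.95 and −0.48), in cells of 8000 to 20000 UMIs (−1.20 and −0.93) or with thinned cells (−0.38 and −0.66). For Batf (0.58 ± 0.22, adjusted p = 0.236 by edgeR), Rgs16 (0.86 ± 0.55, adjusted p = 0.645 by edgeR) and Egr2 (0.20 ± 0.53, adjusted p = 0.941 by edgeR) the difference between the cell types did not pass. Their rise in CD8 cells was therefore not shown to be particular to CD8 cells. In other pathway genes the same test passed for Cd69 (−1.10), Tox (1.10), Ier3 (1.06), Ier5 (−0.62), Zfp36 (−0.61) and Socs3 (−0.62), of which Tox and Ier3 were named after their values were seen.

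**Figure D4:**
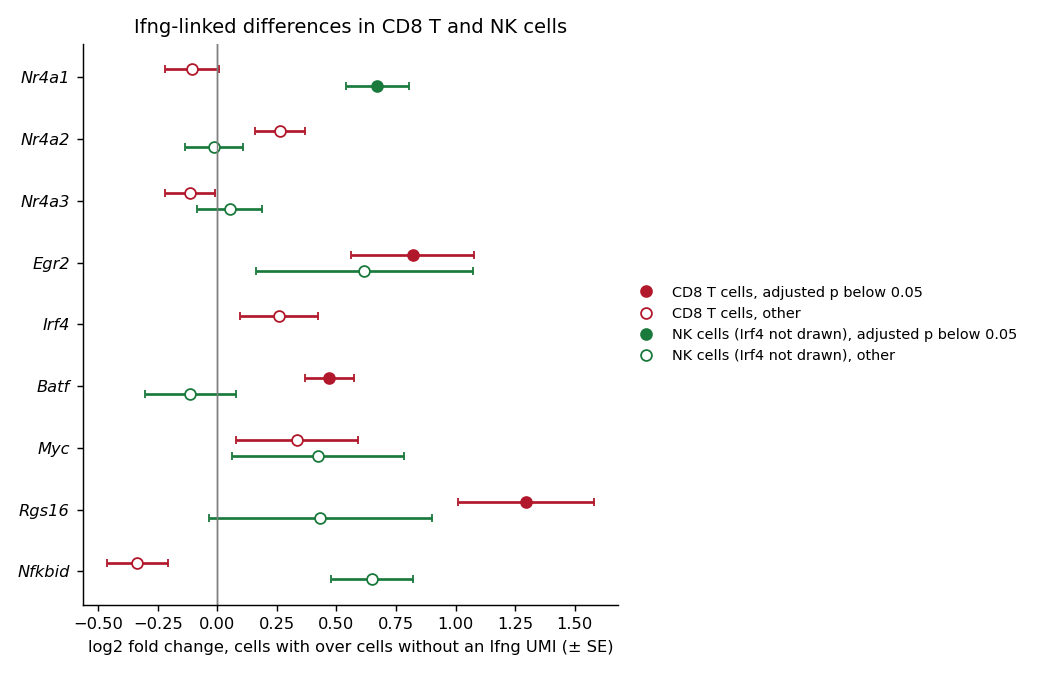
Log2 fold change (± SE, edgeR, 3 libraries) between cells with and without an Ifng UMI for each gene in CD8 T cells (red) and NK cells (green); filled points have adjusted p below 0.05, and Irf4 is not drawn for NK cells, which held 2 UMIs of it. Nr4a1 and Nfkbid lie at or below 0 in CD8 cells and at 0.67 and 0.65 in NK cells.

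Cells with a Trbv14 UMI were compared with the other CD8 cells to ask how the early genes relate to the transferred receptor. Irf4 and Myc were higher in Trbv14-positive cells and the other 7 members did not pass. That is 2 of 9 beside 4.38% of 10418 genes, 2.44% of them higher. Median depth was 26176, 19389 and 25919.5 UMIs with a Trbv14 UMI and 13172.5, 11581.5 and 8791 without, and shared barcodes were 88 of 370 and 118 of 1048 cells.

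Irf4 was at 60.4, 48.6 and 25.2 CPM with Trbv14 and 27.4, 24.1 and 20.6 without. The ratio was 2.21 (1.76 to 2.76) at day 3, 2.01 (1.60 to 2.54) at day 7 and 1.22 (0.907 to 1.65) at day 14, and the log2 fold change 0.87 ± 0.19 (edgeR adjusted p = 0.0450). Myc was at 95.8, 64.6 and 82.0 CPM with Trbv14 and 41.6, 39.0 and 54.2 without, with no overlap (0.86 ± 0.15, edgeR adjusted p = 0.0206). Neither call was kept without the day 3 or the day 7 library, with shared barcodes removed (0.68 for Irf4 and 0.74 for Myc), or in cells of 8000 to 20000 UMIs (0.83 and 0.57); all these values were above 0. With the mixed cells removed Irf4 (0.97), Myc (0.89), Nr4a3 (0.59) and Egr2 (1.81) passed, beside 5.51% of 9716 genes (2.77% higher). Egr2 then had 14, 20 and 21 UMIs with Trbv14 and 11, 10 and 9 without. With the mixed cells kept Egr2 was at 0.41 ± 0.32 (edgeR adjusted p = 0.500). Its ratios were then 2.20, 0.761 and 1.20 at days 3, 7 and 14.

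Nr4a1, Nr4a2 and Nfkbid changed place between the days, and Nr4a3 did not. The direction also turned for Egr2 (above) and Batf (below), with counting intervals that included 1 at the turn. Nr4a1 was at 129, 140 and 72.5 CPM with Trbv14 against 84.7, 103 and 107 without, so the Trbv14-positive cells were higher at days 3 and 7 and lower at day 14, with ratios of 1.52, 1.36 and 0.680. Nfkbid had the same pattern, at 55.8, 52.8 and 29.4 CPM against 33.4, 41.2 and 48.5 (ratios of 1.67, 1.28 and 0.606). Nr4a2 had the opposite one, at 199, 459 and 359 CPM with Trbv14 and 258, 384 and 283 without (0.772, 1.20 and 1.27). Nr4a3 was higher in 3 of 3 libraries, at 76.7, 102 and 73.7 against 61.8, 58.1 and 59.7 CPM (0.50 ± 0.14, edgeR adjusted p = 0.0724).

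Rgs16 and Batf did not follow Irf4 and Myc. Rgs16 was lower with Trbv14 in 3 of 3 libraries, at 138, 191 and 157 against 242, 207 and 218 CPM, without passing (−0.44 ± 0.13, edgeR adjusted p = 0.0916), though it did in cells of 8000 to 20000 UMIs (−1.08). Batf was at 51.2, 62.7 and 82.8 CPM with Trbv14 and 101, 110 and 73.6 without (−0.51 ± 0.22, edgeR adjusted p = 0.252). It was lower with Trbv14 at days 3 and 7 and at 1.12 times (0.959 to 1.32) at day 14. In the same fit 11 of 20 Myc-linked growth genes were higher and 1 lower (median 0.63), 0 of 15 immediate early genes passed (median −0.20), and 3 of 16 activation receptors were higher and 1 lower. Of the 4 neutrophil markers tested 3 were lower (median −3.33), and the summed myeloid markers were at 3041, 516 and 2155 CPM with and 3809, 2347 and 5820 without Trbv14; their part in the result was not tested.

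Within both Trbv14 classes, Ifng-positive cells were described without a test. In Trbv14-negative cells Rgs16 was at 273, 258 and 327 CPM with an Ifng UMI and 132, 105 and 67.5 without. In Trbv14-positive cells it was at 138, 232 and 213 against 137, 106 and 66.5 CPM. At day 3, with 57 and 22 cells, the 2 classes had like levels by summed UMIs, but the top cell held 33 of the 55 UMIs without Ifng. After thinning, an Rgs16 UMI was expected at day 3 in 13.6% of Trbv14-positive cells with Ifng and 8.68% of those without. Batf in Trbv14-positive cells was at 52.6, 71.4 and 79.7 CPM with Ifng and 44.8, 44.4 and 87.6 without, so lower with Ifng at day 14. There 1 cell held 27 of the 137 UMIs without Ifng. In Trbv14-negative cells Batf was at 109, 123 and 97.3 against 71.4, 83.6 and 40.8 CPM. Irf4 in Trbv14-positive cells was at 64.6, 51.0 and 27.8 CPM with Ifng and 39.8, 43.6 and 21.1 without, and both values at each of days 3 and 7 lay above both of the Trbv14-negative classes (23.4 to 31.7 CPM). Myc was highest in cells with UMIs of both Ifng and Trbv14, at 105, 69.4 and 97.6 CPM, against 37.2 to 64.7 in cells with Ifng and no Trbv14 UMI. Nr4a3 went opposite ways by Trbv14. In Trbv14-positive cells it was at 79.6, 107 and 82.9 CPM with Ifng and 62.2, 91.4 and 58.8 without. In Trbv14-negative cells it was at 56.0, 53.8 and 54.4 CPM with Ifng and 82.0, 66.7 and 66.9 without.

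CD8 cells differed from NK cells in 6 of the 9 members, beside 38.5% of 11022 genes: 3 were higher, as were 21% of genes, and 3 lower, as were 17.4%. Irf4 had 827 UMIs in CD8 and 2 in NK cells, a ratio over the summed libraries of 83.9 (23.2 to 694, counting error only). Rgs16 was higher in CD8 cells by 1.63 ± 0.22 (edgeR adjusted p = 0.00266) and Batf by 1.23 ± 0.15 (edgeR adjusted p = 2.12e-05), each in 3 of 3 libraries. Nr4a1 was lower by −1.08 ± 0.10 (edgeR adjusted p = 2.53e-06), Nfkbid by −0.77 ± 0.13 (edgeR adjusted p = 0.000415) and Nr4a3 by −0.60 ± 0.12 (edgeR adjusted p = 0.00142), with no overlap between the cell types. NK cells were shallower, with medians of 4920 to 5984 UMIs against 11028 to 16155. In cells of 8000 to 20000 UMIs Irf4, Rgs16, Batf and Nr4a1 kept their calls, while Nfkbid was at 0.03 and Nr4a3 at −0.04. Of the 15 immediate early genes 10 were lower in CD8 than in NK cells and 0 higher (median −0.85, beside 0.01 for all genes).

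Treg differed from CD8 cells in 7 of the 9 members, beside 16.8% of 10888 genes: 4 were higher, as were 9.52% of genes, and 3 lower, as were 7.26%. Rgs16 (−1.82 ± 0.22, edgeR adjusted p = 0.000327), Nr4a2 (−1.64 ± 0.24, edgeR adjusted p = 0.00189) and Myc (−0.65 ± 0.19, edgeR adjusted p = 0.0329) were lower in Treg in 3 of 3 libraries. By the mean of CPM over cells Rgs16 was not lower in Treg at day 14, at 216 against 172 CPM. Egr2 (0.90 ± 0.27, adjusted p = 0.0440 by edgeR), Nfkbid (0.66 ± 0.18, adjusted p = 0.0276 by edgeR), Nr4a1 (0.59 ± 0.14, adjusted p = 0.0160 by edgeR) and Batf (0.57 ± 0.17, adjusted p = 0.0417 by edgeR) were higher in 3 of 3. The Foxp3 gate also held 43 mixed cells of 180, and the 16 myeloid markers summed to 13983, 3686 and 12888 CPM in it, against 3609, 1621 and 3974 in CD8 cells. With mixed cells removed in both, Batf (0.81), Nr4a2 (−2.09) and Rgs16 (−1.75) kept their calls and Nr4a3 gained one (−0.89), while Nr4a1 (0.26), Nfkbid (0.58) and Myc (−0.50) did not pass and Egr2 turned to −0.48 on 1, 2 and 3 UMIs in Treg. With Treg required to hold a Cd3 and no Cd8 UMI, Batf (0.60) kept its call, Egr2 (0.62), Nfkbid (0.60) and Nr4a1 (0.45) lost theirs, and Nr4a3 (−0.96) passed. Without day 14, which holds 89 of the 180 Treg, only Nr4a2 and Rgs16 of the 9 passed.

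**Figure D5:**
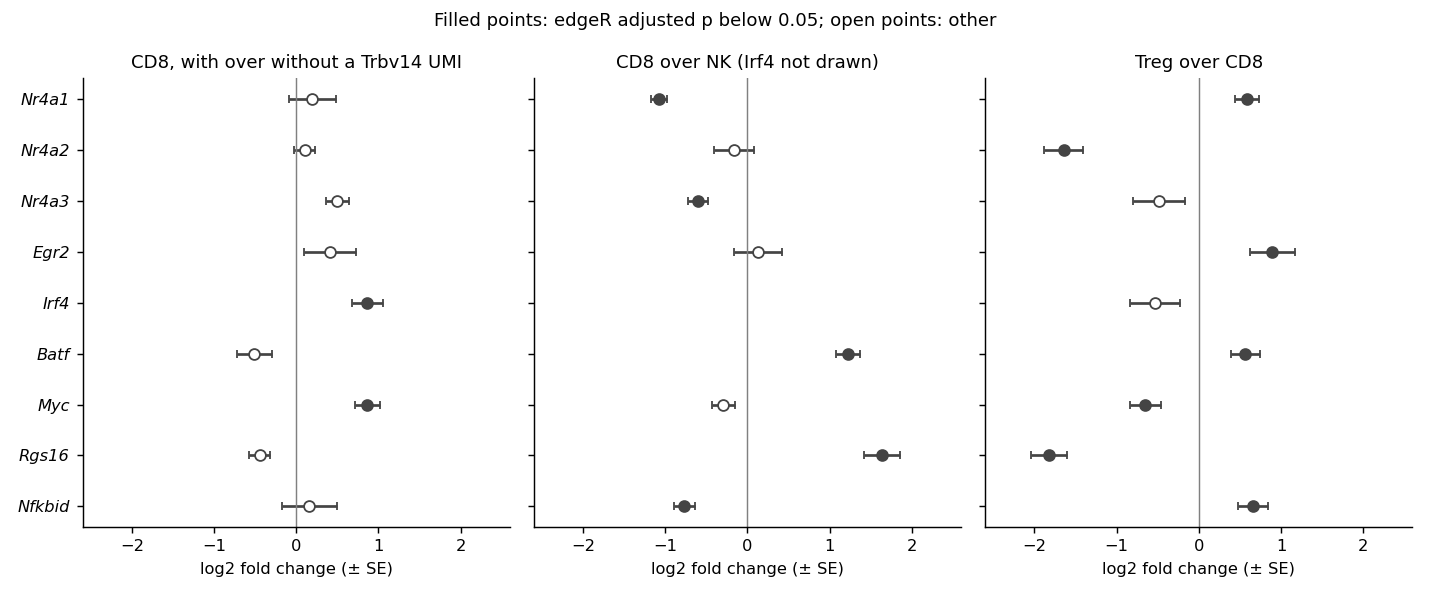
Log2 fold change (± SE, edgeR, 3 libraries) of each gene in CD8 T cells with over without a Trbv14 UMI (left), CD8 T cells over NK cells (middle) and Treg over CD8 T cells (right); filled points have adjusted p below 0.05. Irf4 and Myc are filled on the left, Rgs16 is at 1.63 in the middle and −1.82 on the right, and Irf4 is not drawn for NK cells, which held 2 UMIs of it.

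Between days, values were set side by side with counting intervals, since each day is 1 library. In all CD8 cells Nr4a2 was 1.70 times (1.62 to 1.80) as high at day 7 as at day 3, from 2241 to 3775 UMIs, and Irf4 at day 14 was 0.638 times (0.530 to 0.766) its day 3 level. Egr2 was at 0.648 times (0.478 to 0.874) its day 3 level on day 7 and 0.603 times (0.436 to 0.828) on day 14. These 4 differences of at least 1.5-fold stand beside 18% of genes past that fold between days 7 and 3 and 11.7% between days 14 and 3. With 9.86% of genes past it, no member was between days 14 and 7. The Egr2 ratios turned above 1 for day 14 over day 3 with the mixed cells removed (log2 0.12) and for day 7 over day 3 with shared barcodes removed (log2 0.34); mixed cells were 96, 43 and 55 of the CD8 cells at days 3, 7 and 14. With them removed Nr4a2 at day 7 (log2 0.57) was under 1.5-fold, and with TMM scaling so was Irf4 at day 14 (log2 −0.56). By the mean of CPM over cells, Nr4a2 (0.56) and Egr2 (−0.11) at day 7 over day 3 were under it, and Irf4 at day 14 over day 7 was past it (−0.84), as it was without the top cell of each library (−0.60).

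Nr4a2 was higher at day 7 than at day 3 in both Ifng classes, 1.74 times (1.64 to 1.85) with an Ifng UMI and 1.69 times (1.51 to 1.89) without, where 17.1% and 14.4% of genes were past 1.5-fold. From day 7 to day 14 it stayed under 1.5-fold apart in cells with Ifng (431 and 372 CPM) and was 0.648 times (0.591 to 0.710) as high in cells without. Rgs16 was at 248 and 268 CPM with Ifng and 106 and 67.0 without (0.634 times, 0.531 to 0.756). With mixed cells removed, the levels without Ifng at days 7 and 14 were 111 and 77.6 CPM for Rgs16 and 377 and 265 for Nr4a2, both under 1.5-fold apart. Irf4 without Ifng was 0.480 times (0.335 to 0.680) its day 7 level at day 14, on 51 and 98 UMIs, and Myc with Ifng was 1.63 times (1.40 to 1.90) as high; 8.87% of genes with Ifng and 12.3% without were past 1.5-fold between these days.

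Between days 14 and 3 Trbv14-positive cells held more of these differences than all CD8 cells: 6 of 9 genes were past 1.5-fold, beside 19.6% of genes. Between days 7 and 3, 1 member was higher and 1 lower, beside 25.8% of genes. Between days 14 and 7, 0 were higher and 3 lower, beside 12.4%. Irf4 was 0.417 times (0.321 to 0.541) its day 3 level at day 14, Nfkbid 0.526 times (0.408 to 0.678) and Nr4a1 0.561 times (0.477 to 0.660). Egr2 was at 0.392 times (0.246 to 0.616) on 34 and 51 UMIs. Nr4a2 and Batf were higher, at 1.80 times (1.63 to 2.01) and 1.61 times (1.31 to 2.00). Mixed cells were 29 of 79 Trbv14-positive cells at day 3 and 27 of 136 at day 14. Without them Batf was at 51.7 and 73.0 CPM, under 1.5-fold apart. Egr2 was at 12.7 and 7.20 CPM on 14 and 21 UMIs, with overlapping counting intervals. Irf4 (64.4 and 28.4 CPM), Nfkbid (55.3 and 28.1), Nr4a1 (127 and 70.9) and Nr4a2 (244 and 390) stayed past 1.5-fold. In Trbv14-negative cells no member was past 1.5-fold in any of the 3 pairs of days, where 15.5% (days 7 and 3), 9.67% (14 and 7) and 15.2% (14 and 3) of genes were. NK cells, where Irf4 had too few UMIs, also held such differences. Between days 7 and 3, 1 member was higher and 3 lower, beside 8.37% of genes. Between days 14 and 7, 2 were higher and 1 lower, beside 8.98%, and between days 14 and 3, 0 and 1, beside 12.1%. In NK cells Nr4a2 at day 14 was 0.548 times (0.483 to 0.620) its day 7 level. In all CD8 cells it was 0.777 times (0.739 to 0.817), in the same direction.

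Single cells held several of the 9 genes at once. The mean number of members with a UMI was 5.01, 4.83 and 4.70 in CD8 cells with Ifng and 2.98, 3.38 and 2.87 in those without. After thinning each cell to 1500 UMIs the expected means were 1.17, 1.29 and 1.19 against 0.925, 0.960 and 0.733, a narrower gap. Thinned NK cells had 1.18, 1.22 and 1.01.

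The 9 genes did not share 1 profile over 12 groups (CD8 with and without Ifng, NK and Treg at 3 days), as a description in which the groups share libraries. Nr4a2 and Nr4a3 had a Pearson r of 0.72, Irf4 and Batf 0.79, and Nr4a1 and Nfkbid 0.81, while Nr4a1 had −0.73 with Irf4 and −0.70 with Rgs16. Against the mean of the 9 scaled profiles the members themselves had r of −0.21 (Irf4) to 0.44 (Rgs16). The 5 of 8684 genes most like that mean were Acot7 (0.84), Lias (0.81), Nedd9 (0.77), Ppp6c (0.76) and Ifng (0.75), the last of which set the classes.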

How the data were processed

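The authors deposited UMI counts per gene and barcode in 3 libraries. The counting tool was Cell Ranger 4.0.0 and the genome mm10, per the submitters' processing notes; neither the annotation release nor doublet removal was stated in what was used here. Per the labels, tumours were digested at 37 °C for 40 minutes, and the CD45+ cells came from a cell sorter by the sample protocol and from magnetic beads by the series design. The libraries held 3656, 3038 and 3549 barcodes with 33096709, 29547433 and 35742070 UMIs. No doublet caller was run. Intervals are exact, at 95%, and cover counting error only.

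Gates used barcodes of at least 1500 UMIs: CD8 needed 2 UMIs of Cd8a and Cd8b1 and 1 of Cd3e and Cd3d, NK 2 of Ncr1 and Klrb1c and none of Cd3, and Treg 1 of Foxp3 outside the CD8 gate, which held 23 Foxp3-positive cells. UMIs were summed per class and library. Classes were compared with edgeR 4.0.16 in R 4.3.3 (quasi-likelihood, TMM, filterByExpr, library as block because the classes come from the same library, Benjamini-Hochberg over all genes tested). Tested on simulated data, false calls exceeded the nominal rate in each comparison simulated, and recovery of small changes was lowest for Treg over CD8. P-values measure the spread across 3 libraries, which are also 3 days. The Ifng comparisons of CD8 and NK cells were made in the same fit, with library within cell type as block. Their p-values therefore share a spread estimated from both cell types. Alternatives were DESeq2 1.42.0, other scaling, filters and gates, and leaving out libraries.

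The members and lists were chosen with earlier results of these data known. Named genes are the 9 members, up to 4 per list with the largest change among those that passed between CD8 cells with and without Ifng, 5 genes by likeness and the gate markers; Tox and Ier3 fall outside this rule and were named after their values were seen. One result that this rule covers is not reported here. Days were compared as ratios, counted at 1.5-fold with an interval excluding 1 and at least 20 UMIs. Gene starts are from GENCODE M21 and RefSeq GRCm38.p6.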

Additional observations from a re-analysis of the deposited data

Results flagged for a closer look

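The difference of the Ifng effect between CD8 and NK cells passed the test for Nfkbid and Nr4a1. For Nfkbid it was −0.99 (edgeR adjusted p = 0.0205): −0.34 in CD8 cells, lower with Ifng in 3 of 3 libraries, and 0.65 in NK cells, higher in 3 of 3. For Nr4a1 it was −0.78 (edgeR adjusted p = 0.0303): −0.10 in CD8 cells, lower in 2 of 3 libraries, and 0.67 in NK cells, higher in 3 of 3. Among the alternatives, both lost the call under DESeq2, without the block, in cells of 8000 to 20000 UMIs, with thinned cells and without day 7. Nfkbid also lost it with shared barcodes removed (−0.82) and without day 3 (−0.83), and Nr4a1 with mixed cells removed (−0.69) and without day 14 (−0.82).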

How the results depend on the processing

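Counts of genes and of the 9 members that passed moved by over 1.5 times under these alternatives. For Ifng in CD8 cells (2229 genes, 3 members), DESeq2 gave 919 genes, no replicate block 243 and 0 members, no filter 5 members, and leaving out 1 library 922 to 1976 genes and 0 to 2 members. For Ifng in NK cells (24 genes, 1 member), DESeq2 gave 37 genes, no filter 131 and 2 members, no replicate block 0 and 0, mixed cells removed 0 members, Ifng of at least 2 gave 2 members, and leaving out 1 library 5 to 74 genes and 0 to 1 members. For the difference (131 genes, 2 members), DESeq2 gave 58 and 0, no filter 270 genes, no replicate block 5 and 0, at least 5000 UMIs 80 genes, mixed cells removed 329 genes and 1 member, shared barcodes removed 1 member, and leaving out 1 library 22 to 116 genes and 0 to 1 members. For Trbv14 (456 genes, 2 members), DESeq2 gave 292 and 1, no filter 1378 and 5, no replicate block 2 and 0, at least 5000 UMIs 1 member, mixed cells removed 4 members, shared barcodes removed 107 and 0, and leaving out 1 library 3 to 373 genes and 0 to 4 members. For CD8 over NK (4241 genes), DESeq2 gave 2680 and leaving out 1 library 2678 to 4130. For Treg over CD8 (1826 genes, 7 members), no replicate block gave 1043 and 3, DESeq2 3 members, mixed cells removed 1109 and 4, and leaving out 1 library 1095 to 1895 genes and 2 to 6 members.

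Cells of 8000 to 20000 UMIs and cells thinned to 1500 UMIs were alternatives chosen after seeing the data. In the same order of comparisons they gave 242 and 593 genes; 103 and 13 genes with 2 and 0 members; 55 genes with 0 members, and 0 members when thinned; 28 and 77 genes with 1 and 0 members; 969 and 1840 genes; and 925 and 625 genes with 4 and 1 members. Of the 4 day differences in CD8 cells, 2 were left outside mitochondrial and ribosomal genes, 2 with TMM scaling, 1 with mixed cells removed, and 2 by the mean of CPM over cells, which added 1. Directions turned for Nfkbid between CD8 and NK (0.0286, cells of 8000 to 20000 UMIs), Egr2 between Treg and CD8 (−0.48, mixed cells removed), and Egr2 at day 7 over day 3 (0.34, shared barcodes removed) and day 14 over day 3 (0.12, mixed cells removed); the cause was not tested. Small counts limit Egr2 (254 UMIs in CD8 cells) and Irf4 in NK cells (2 UMIs).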
